A study of Mus musculus with 22 samples.

Results

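The tristetraprolin family and 7 other RNA-binding regulators of mRNA stability were followed in mouse BMDM (bone marrow-derived macrophages, cells that mature in culture out of marrow precursors). The 10 genes were chosen by name: Zfp36, which codes for tristetraprolin (TTP), its paralogs Zfp36l1 and Zfp36l2, and Zc3h12a, Rc3h1, Elavl1, Hnrnpd, Khsrp, Tia1 and Tial1. All 10 were among the 22330 genes tested, and they were measured by 15 of the 55681 non-control probes of the array. Each of the 15 probes was well above background on at least 3 arrays and was kept, 11 of them on all 22 arrays.

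BMDM came from male C57BL/6 mice that were wild type (wt), lacked the protein kinase MK2 in all cells (MK2-/-) or lacked both MK2 and MK3 (MK2/3-/-). All cells were differentiated for 9 days with 10 ng/ml M-CSF. They then stayed for 360 min in plain medium or received 100 ng/ml lipopolysaccharide (LPS), an outer membrane component of Gram-negative bacteria. There were 4 arrays of wt medium, 3 of wt LPS, 4 of MK2-/- medium, 4 of MK2-/- LPS, 3 of MK2/3-/- medium and 4 of MK2/3-/- LPS. The mice were 10 to 14 weeks old: 12 to 13 for wt, 10 to 13 for MK2-/- and 11 to 14 for MK2/3-/-. The labels number the arrays within a group without saying which mouse or culture each came from, so p-values measure the spread between these arrays, which may in part be technical. All arrays of a genotype were on 1 slide, so for a direct comparison of genotypes the slide and the genotype cannot be told apart, while LPS and medium were compared within a slide.

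TTP binds AU-rich elements in the 3' untranslated region of mRNAs, many of them coding for cytokines, and recruits the CCR4-NOT complex, which removes the poly(A) tail and starts decay. Kinases of the p38 pathway, MK2 among them, phosphorylate TTP in activated macrophages, which keeps it from recruiting the decay machinery and also stabilises the protein. Other proteins read the same or neighbouring elements: HuR (Elavl1) is known as a stabiliser, AUF1 (Hnrnpd) and KSRP (Khsrp) mostly as destabilisers, and TIA-1 and TIAR (Tia1, Tial1) as repressors of translation. Regnase-1 (Zc3h12a), an endonuclease, and roquin-1 (Rc3h1) act on stem-loops in inflammatory mRNAs.

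Because Zfp36 and Zc3h12a rose with LPS and Zfp36l1 fell, the 250 bases before their starts are shown as RefSeq gives them for GRCm38.p6. Zfp36 lies on the minus strand of chromosome 7 (chr7:28379229-28379478), Zc3h12a on the minus strand of chromosome 4 (chr4:125127882-125128131) and Zfp36l1 on the minus strand of chromosome 12 (chr12:80113014-80113263). Capitals mark matches, on either strand, to any of 4 motifs of factors that act in activated macrophages: an NF-kB-type motif, the AP-1 motif TGANTCA, the cAMP response element TGACGTCA and the CArG box read by serum response factor.
Zfp36: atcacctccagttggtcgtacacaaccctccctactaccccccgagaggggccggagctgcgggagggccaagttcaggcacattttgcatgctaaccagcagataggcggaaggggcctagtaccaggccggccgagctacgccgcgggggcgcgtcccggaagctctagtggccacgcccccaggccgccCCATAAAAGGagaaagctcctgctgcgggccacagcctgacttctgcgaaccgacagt
Zc3h12a: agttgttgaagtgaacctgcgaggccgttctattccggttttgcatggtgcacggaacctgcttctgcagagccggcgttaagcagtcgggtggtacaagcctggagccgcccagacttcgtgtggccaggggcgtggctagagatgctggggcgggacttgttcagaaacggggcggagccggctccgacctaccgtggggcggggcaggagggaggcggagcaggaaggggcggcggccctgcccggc
Zfp36l1: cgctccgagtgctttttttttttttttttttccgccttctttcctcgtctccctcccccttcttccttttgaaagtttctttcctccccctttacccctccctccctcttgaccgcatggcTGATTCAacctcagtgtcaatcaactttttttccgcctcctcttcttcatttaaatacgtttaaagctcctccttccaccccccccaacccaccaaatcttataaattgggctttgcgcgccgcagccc
The CArG box stands at base 193 of the Zfp36 window and was found in 1.47% of all 32851 windows of this length. The AP-1 motif stands at base 122 of the Zfp36l1 window and was found in 6.75% of all windows. None of the 4 motifs was found in the Zc3h12a window, and the NF-kB-type motif, present in 4.11% of all windows, and the cAMP response element, present in 1.55%, were found in none of the 10 windows of the 9 members that the table holds. The window of Rc3h1 held 1 AP-1 motif at base 118, and those of Elavl1, Hnrnpd, Khsrp, Tia1 and Tial1 held none of the 4. Zfp36l2 had no window in the table. A match describes letters and is not evidence of binding.

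The values are log2 processed signals after quantile normalisation of the 22 arrays, and a difference is given on that log2 scale with its standard error (SE) from limma. Called genes are those with a p below 0.05 after Benjamini-Hochberg adjustment over all 22330 genes, with the probe of highest mean signal standing for the gene. Levels of different probes are not comparable, so each gene is compared only with itself. The share of probes well above background was 61.0% to 78.0% per array, and the median processed signal was 32.4 to 103. Macrophage markers were well above background, with 7 of 7 measured and a summed linear signal of 442000 to 758000 over all arrays. The fibroblast markers varied within groups (5 genes, summed signal 3050 to 103000 in wt medium, 11300 to 60600 in wt LPS and 682 to 47300 in the other groups). T cell markers, led by Cd4 and Cd3e, summed in medium to 3620 to 4500 in wt, 5010 to 9490 in MK2-/- and 6700 to 9270 in MK2/3-/-. Under LPS they summed to 5440 to 5890 in wt, 5430 to 8700 in MK2-/- and 6610 to 11900 in MK2/3-/-. Neutrophil and granulocyte precursor markers summed in medium to 2600 to 3240 in wt, 2600 to 6450 in MK2-/- and 4480 to 5830 in MK2/3-/-. Their sums under LPS were 2360 to 3050 in wt, 1980 to 3080 in MK2-/- and 3550 to 5300 in MK2/3-/-. Erythroid markers summed under LPS to 146 to 205 in wt, 297 to 379 in MK2-/- and 175 to 292 in MK2/3-/-. The part of these marker sets in the results was not tested. On the wt medium array of replicate 4, 9 of 9 LPS-inducible check genes were highest of the group, so values without it are given where it changes a call. Mapkapk2, which codes for MK2, lay between 10.77 and 15.33 on the wt arrays, between 8.70 and 11.95 on the MK2-/- arrays and between 8.34 and 11.22 on the MK2/3-/- arrays. Mapkapk3, which codes for MK3, lay between 11.92 and 13.42 on the wt and MK2-/- arrays and between 7.65 and 11.40 on the MK2/3-/- arrays. Whether these probes lie in the deleted parts of the genes is not given, so they check the labels only in part.

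The first question was how LPS moved the regulators. TTP and regnase-1 mRNA rose about 9.49-fold and 13.0-fold in wt BMDM, whereas the TTP paralogs Zfp36l1 and Zfp36l2 fell 6.03-fold and 12.0-fold. In wt, 4 of the 10 genes rose (Zc3h12a, Zfp36, Hnrnpd and Elavl1), against 18.7% of all genes tested, and 4 fell (Zfp36l2, Zfp36l1, Tia1 and Tial1), against 23.6% of all genes. In MK2-/- BMDM the same 4 genes rose and the same 4 fell, where 17.6% of all genes rose and 27.2% fell. In MK2/3-/- BMDM 3 rose, all but Elavl1, and the same 4 fell, where 20.3% of all genes rose and 28.0% fell. The median log2 difference over the 10 genes was 0.35 in wt, 0.07 in MK2-/- and -0.05 in MK2/3-/-, beside -0.04, -0.01 and 0.01 over all genes. In a culture, fewer cells that express a gene and less RNA per cell cannot be told apart.

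Zfp36, the gene of TTP, had log2 signals of 8.87, 9.71, 9.37 and 9.44 in wt medium and of 12.15, 12.72 and 12.90 in wt LPS. In MK2-/- BMDM it had 8.86, 7.60, 8.82 and 9.27 in medium and 11.74, 12.08, 11.60 and 12.24 under LPS. In MK2/3-/- BMDM it had 9.15, 9.73 and 9.42 in medium and 11.65, 12.25, 10.89 and 11.40 under LPS. All LPS arrays lay above all medium arrays, in every genotype. The rise was 3.25 in wt (SE 0.35, limma adjusted p = 5.87e-07), 3.28 in MK2-/- (SE 0.33, adjusted p = 9.9e-08) and 2.12 in MK2/3-/- (SE 0.35, adjusted p = 5.38e-05). By group mean the order from low to high was MK2-/- medium, wt medium, MK2/3-/- medium, MK2/3-/- LPS, MK2-/- LPS and wt LPS, and neighbours on the same side of the medium to LPS step overlapped in their arrays.

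Zc3h12a, the gene of the endonuclease regnase-1, had log2 signals of 8.30, 8.64, 8.61 and 8.76 in wt medium and of 11.69, 12.83 and 12.31 in wt LPS. In MK2-/- BMDM it had 7.60, 6.40, 7.61 and 7.83 in medium and 12.02, 12.16, 11.95 and 12.13 under LPS. In MK2/3-/- BMDM it had 8.29, 8.54 and 8.32 in medium and 11.90, 12.05, 11.68 and 11.93 under LPS. The medium arrays of MK2-/- lay below the medium arrays of both other genotypes, and the LPS arrays of the 3 genotypes overlapped. The rise was 3.70 in wt (SE 0.28, limma adjusted p = 7.03e-09), 4.70 in MK2-/- (SE 0.26, adjusted p = 7.03e-11) and 3.50 in MK2/3-/- (SE 0.28, adjusted p = 6.71e-09).

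Zfp36l1, a paralog of TTP with the same type of zinc fingers, had log2 signals of 13.23, 13.89, 14.07 and 13.81 in wt medium and of 11.38, 11.51 and 10.59 in wt LPS. In MK2-/- BMDM it had 13.61, 12.97, 13.62 and 14.26 in medium and 9.62, 10.40, 10.45 and 10.38 under LPS. In MK2/3-/- BMDM it had 13.64, 14.06 and 13.85 in medium and 10.03, 10.17, 10.00 and 10.28 under LPS. The LPS arrays were below the medium arrays throughout, and those of both knockouts were below those of wt. The difference was -2.59 in wt (SE 0.29, limma adjusted p = 8.45e-07), -3.41 in MK2-/- (SE 0.27, adjusted p = 4.77e-09) and -3.73 in MK2/3-/- (SE 0.29, adjusted p = 4.57e-09).

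Zfp36l2, the other paralog, had log2 signals of 15.31, 15.15, 15.32 and 15.41 in wt medium and of 11.89, 11.43 and 11.81 in wt LPS. In MK2-/- BMDM it had 15.81, 15.34, 15.56 and 15.75 in medium and 11.61, 11.39, 10.99 and 11.66 under LPS. In MK2/3-/- BMDM it had 15.59, 15.51 and 15.78 in medium and 11.20, 10.89, 10.05 and 11.10 under LPS. The medium arrays of the 3 genotypes lay within 1 log2 unit of each other, and the LPS arrays were lowest in MK2/3-/-, all 4 of them below the 3 wt arrays. The difference was -3.59 in wt (SE 0.24, limma adjusted p = 1.43e-09), -4.20 in MK2-/- (SE 0.22, adjusted p = 4.71e-11) and -4.82 in MK2/3-/- (SE 0.24, adjusted p = 3.85e-11), a 28.2-fold fall in the last.

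**Figure D1:**
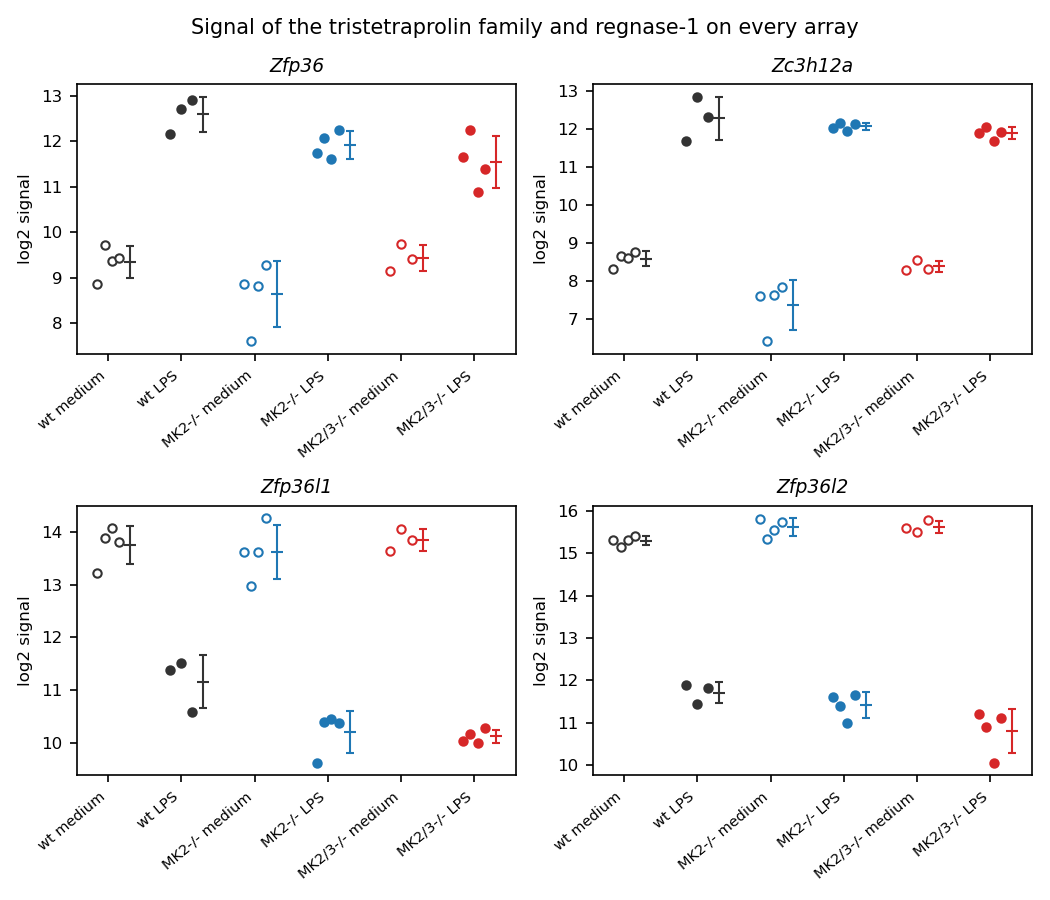
Log2 signal (vertical axis) of Zfp36, Zc3h12a, Zfp36l1 and Zfp36l2 on each of the 22 arrays, by genotype and treatment (horizontal axis). Open points are medium arrays, filled points LPS arrays, and the bar beside each group is its mean ± SD (n = 3 or 4). Zfp36 and Zc3h12a are high and both paralogs low on every LPS array.

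Tia1 and Tial1, the genes of the translational repressors TIA-1 and TIAR, fell in all 3 genotypes. Tial1 had 12.36, 12.29, 12.47 and 12.28 in wt medium and 11.99, 11.58 and 12.04 in wt LPS. It had 12.53, 12.56, 12.45 and 12.38 in MK2-/- medium and 11.58, 11.45, 11.27 and 11.67 in MK2-/- LPS. It had 12.12, 12.35 and 12.47 in MK2/3-/- medium and 11.14, 11.13, 11.28 and 11.31 in MK2/3-/- LPS. The groups with and without LPS did not overlap in any genotype, and the difference was -0.48 in wt (SE 0.15, limma adjusted p = 0.0137), -0.99 in MK2-/- (SE 0.14, adjusted p = 6.61e-06) and -1.09 in MK2/3-/- (SE 0.15, adjusted p = 4.71e-06). The Tial1 call in wt was lost without wt LPS replicate 2 (-0.33, adjusted p = 0.114), with only the groups compared, and with scaling to the 75th percentile, where the difference was -0.20 (adjusted p = 0.318).

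Tia1 was a dim probe, with 7.74, 7.49, 6.97 and 7.30 in wt medium and 6.47, 6.55 and 6.62 in wt LPS. It had 7.41, 6.11, 7.40 and 7.29 in MK2-/- medium and 5.81, 6.13, 5.03 and 5.03 in MK2-/- LPS, where the medium array of replicate 2 lay among the LPS arrays. It had 6.71, 6.92 and 7.13 in MK2/3-/- medium and 4.17, 4.89, 5.09 and 4.88 in MK2/3-/- LPS, with 3 of these 4 LPS arrays well above background. The difference was -0.82 in wt (SE 0.33, limma adjusted p = 0.0492), -1.55 in MK2-/- (SE 0.30, adjusted p = 0.000282) and -2.17 in MK2/3-/- (SE 0.33, adjusted p = 1.7e-05). The call in wt did not hold in 15 of the 22 fits that left out 1 array, where the adjusted p reached 0.124, while the value lay between -0.96 and -0.70, and without wt medium replicate 4 it was -0.85 (adjusted p = 0.0691).

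Hnrnpd and Elavl1 rose less. Hnrnpd, the gene of AUF1, was at 11.83 to 12.42 in wt medium and 12.56 to 12.77 in wt LPS, at 11.39 to 11.97 and 12.18 to 12.73 in MK2-/- BMDM, and at 11.89 to 12.26 and 12.39 to 12.72 in MK2/3-/- BMDM. The rise was 0.60 in wt (SE 0.19, limma adjusted p = 0.0144), 0.81 in MK2-/- (SE 0.17, adjusted p = 0.000714) and 0.52 in MK2/3-/- (SE 0.19, adjusted p = 0.0286). Elavl1, the gene of HuR, was at 13.17 to 13.66 in wt medium and 13.70 to 13.91 in wt LPS, at 13.12 to 13.27 and 13.64 to 13.93 in MK2-/- BMDM, and at 13.45 to 13.52 and 13.59 to 13.94 in MK2/3-/- BMDM. The difference was 0.43 in wt (SE 0.14, limma adjusted p = 0.0214), 0.61 in MK2-/- (SE 0.13, adjusted p = 0.000849) and 0.28 in MK2/3-/-, which was not called (95% interval -0.02 to 0.59, adjusted p = 0.119). The Elavl1 call in wt was lost without wt LPS replicate 1 (0.37, adjusted p = 0.081), without wt medium replicate 3 (0.37, adjusted p = 0.0644) and without wt medium replicate 4 (0.38, adjusted p = 0.0613), and also with only the groups compared in the fit. The Hnrnpd call was lost in wt without wt LPS replicate 2 (0.56, adjusted p = 0.0556). Its call in MK2/3-/- was lost without MK2/3-/- LPS replicate 1 or 2 or MK2/3-/- medium replicate 1 or 2 (0.45 to 0.50, adjusted p up to 0.104) and with only the groups compared.

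The brighter probes of Rc3h1 and Khsrp, which stand for these genes, did not pass the test in any genotype. For Rc3h1, the gene of roquin-1, the difference was 0.26 in wt (95% interval -0.48 to 1.00), 0.54 in MK2-/- (-0.14 to 1.23) and 0.18 in MK2/3-/- (-0.55 to 0.92). For Khsrp, the gene of KSRP, it was 0.46 in wt (-0.13 to 1.05), -0.41 in MK2-/- (-0.96 to 0.14) and -0.28 in MK2/3-/- (-0.87 to 0.31). Khsrp in wt was called with array weights and with scaling to the 75th percentile, where its difference was 1.13 (adjusted p = 0.00262).

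**Figure D2:**
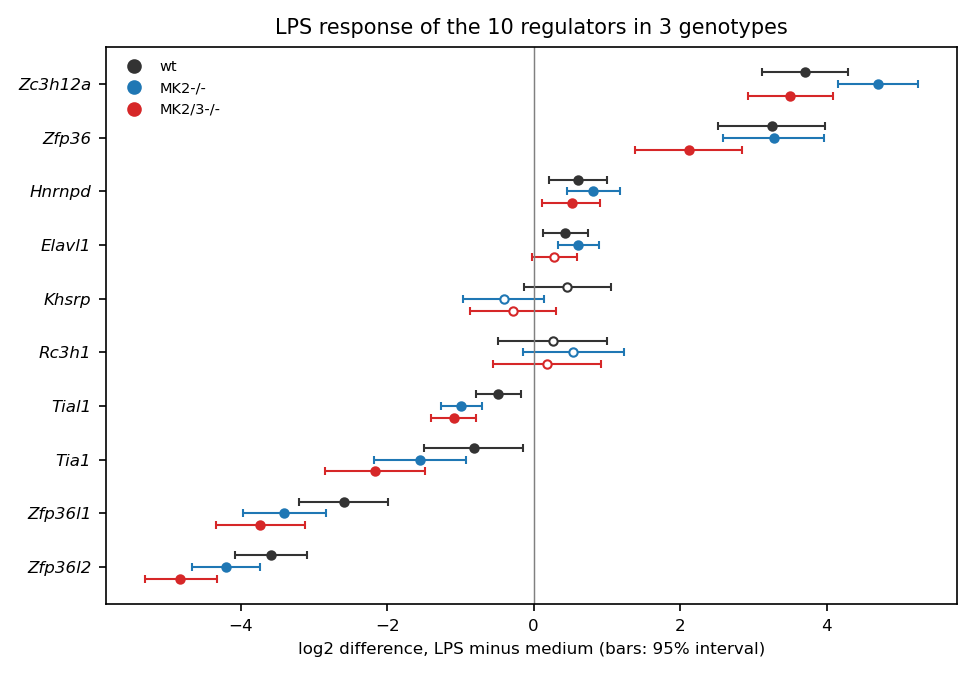
LPS minus medium on the log2 scale (horizontal axis) for the 10 genes in wt, MK2-/- and MK2/3-/- BMDM, with 95% intervals from limma. Filled points passed an adjusted p of 0.05. The changes run from 4.70 for Zc3h12a in MK2-/- to -4.82 for Zfp36l2 in MK2/3-/-, and Rc3h1 and Khsrp were not called in any genotype.

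**Figure D3:**
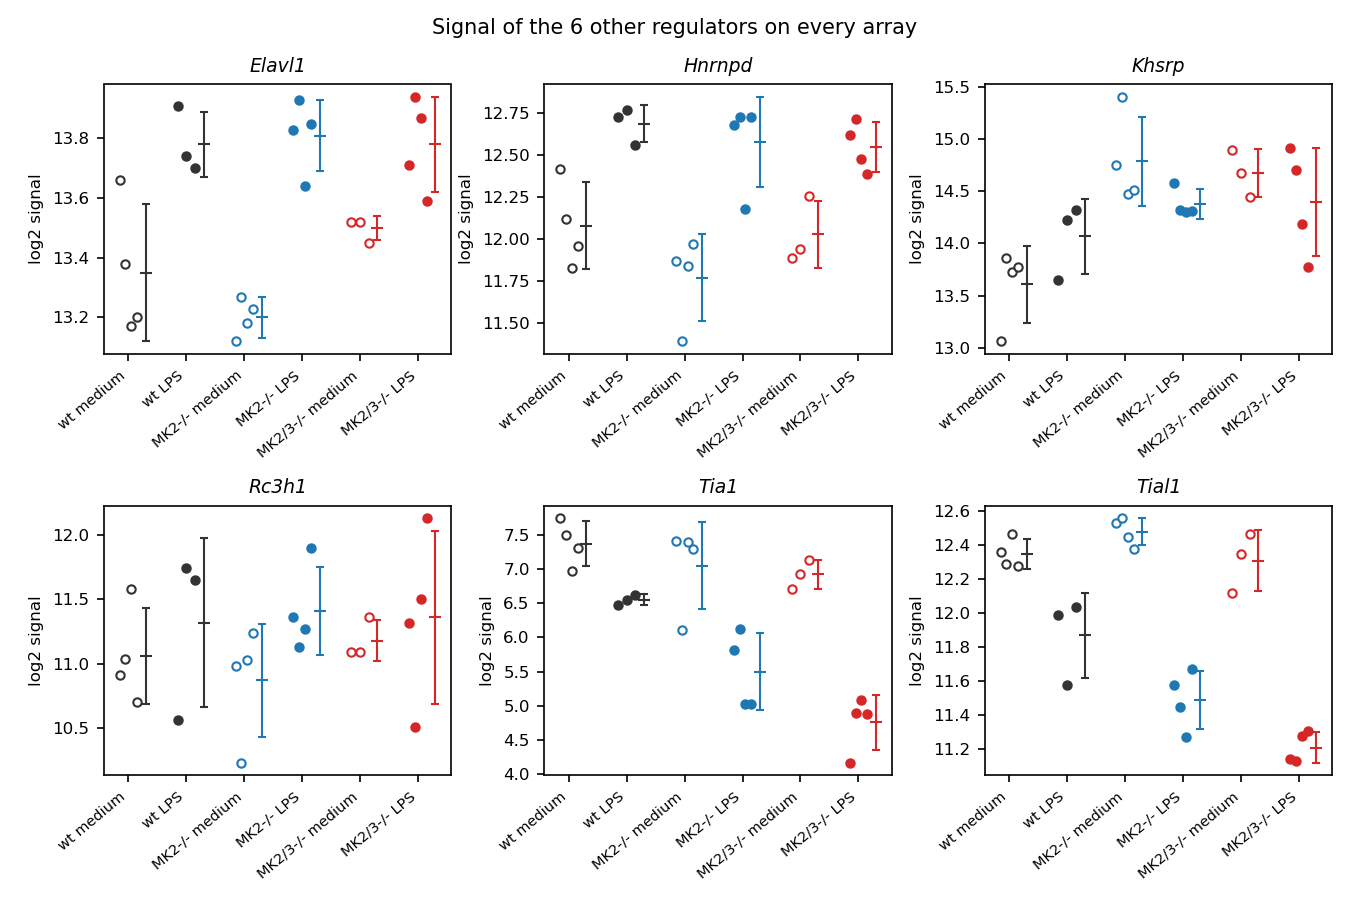
Log2 signal (vertical axis) of Elavl1, Hnrnpd, Khsrp, Rc3h1, Tia1 and Tial1 on each of the 22 arrays by group (horizontal axis), with open points for medium, filled points for LPS and bars for mean ± SD (n = 3 or 4). Tial1 is lower on every LPS array than on any medium array of its genotype, and Khsrp is lowest in wt medium.

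The choice of probe mattered for the 5 genes that the array measures with 2 probes. In a fit across all 28033 kept probes, 11 of the 15 member probes were called in each genotype, with 42.1% of all probes called in wt, 45.5% in MK2-/- and 48.7% in MK2/3-/-. The dimmer probe of Rc3h1 rose by 1.14 in wt (SE 0.21, limma adjusted p = 0.000276), by 1.07 in MK2-/- and by 1.20 in MK2/3-/-, with no overlap between LPS and medium arrays, while the brighter probe was not called. The dimmer probe of Tial1 fell by 2.12 in wt (SE 0.28, adjusted p = 8.94e-06), by 2.96 in MK2-/- and by 3.80 in MK2/3-/-, beside falls of 0.48, 0.99 and 1.09 by the brighter one. In MK2-/- LPS both of these dimmer probes had values on 3 of the 4 arrays, since the spots on replicate 3 were marked as outliers by the scanner software. Both probes of Tia1 fell in all 3 genotypes, the dimmer one by 2.05, 2.53 and 3.82, but that probe was well above background on only 1 LPS array of each genotype. The probes of Elavl1 and Khsrp differed in calls too: the dimmer probe of Elavl1 was not called in any genotype (0.09, -0.36 and -0.39), and the dimmer probe of Khsrp was called in MK2/3-/- (0.51, adjusted p = 0.0285). The files hold no probe sequences, so which transcripts each probe reads was not tested.

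**Figure D4:**
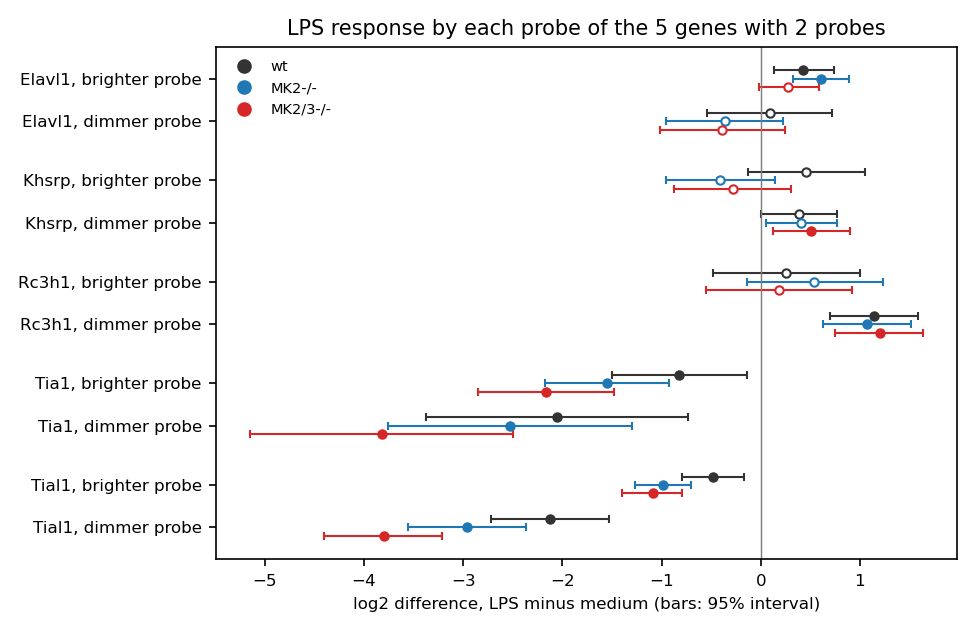
LPS minus medium on the log2 scale (horizontal axis) by the brighter and the dimmer probe of Elavl1, Khsrp, Rc3h1, Tia1 and Tial1 in each genotype, with 95% intervals from limma and filled points for an adjusted p below 0.05. The dimmer probes of Rc3h1 lie above 1 and those of Tial1 below -2 in all 3 genotypes.

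The next question was whether the regulators differed between genotypes under LPS. In MK2/3-/- BMDM 5 of the 10 genes were lower than in wt (Tia1, Zfp36, Zfp36l1, Zfp36l2 and Tial1) and none was higher. Of all genes 14.0% were lower there and 9.65% higher, or 23.7% in either direction. In MK2-/- BMDM 2 were lower than in wt (Tia1 and Zfp36l1), where 7.1% of all genes were lower and 11.6% called in either direction. Between MK2/3-/- and MK2-/- BMDM limma called none of the 10, and 13.6% of all genes. With array weights limma called 2 of the 10. An unadjusted p below 0.05 was found for 6335 of the 22330 genes and for 2 of the 10 (Zfp36l2 and Tia1). All of these comparisons set 1 slide against another.

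Zfp36 was 1.04 lower in MK2/3-/- than in wt under LPS (SE 0.35, 95% interval of the difference -1.78 to -0.30, limma adjusted p = 0.039), although the highest MK2/3-/- array, at 12.25, lay above the lowest wt array, at 12.15. This call was lost in 5 of the 22 fits without 1 array, where the adjusted p reached 0.137. Without wt LPS replicate 2 or 3, or without MK2/3-/- LPS replicate 1, 3 or 4, it did not pass. In MK2-/- Zfp36 was at -0.68 against wt (95% interval -1.41 to 0.06, adjusted p = 0.207). Zfp36l1 was at -0.95 in MK2-/- (SE 0.29, adjusted p = 0.0421) and at -1.04 in MK2/3-/- (SE 0.29, adjusted p = 0.0149), with no overlap with the wt arrays. The Zfp36l1 call in MK2-/- was lost in 9 of the 22 fits without 1 array, among them the fits without wt LPS replicate 1 or 2. Without wt medium replicate 4 neither Zfp36l1 (adjusted p = 0.0522) nor Tia1 (adjusted p = 0.0546) was called in MK2-/- under LPS. The call in MK2/3-/- was lost without wt LPS replicate 1 or 2. Zfp36l2 was at -0.30 in MK2-/- (95% interval -0.79 to 0.20) and at -0.90 in MK2/3-/- (SE 0.24, adjusted p = 0.0106), a call that was lost without wt LPS replicate 1, where the difference was -0.81 (adjusted p = 0.0516).

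Tia1 and Tial1 in MK2/3-/- gave the differences that held best when 1 array was left out. Tia1 was at -1.79 in MK2/3-/- (SE 0.33, limma adjusted p = 0.000923) and at -1.05 in MK2-/- (SE 0.33, adjusted p = 0.0442). Tial1 was at -0.66 in MK2/3-/- (SE 0.15, adjusted p = 0.00401) and at -0.38 in MK2-/- (95% interval -0.69 to -0.07, adjusted p = 0.0968). The 4 arrays of MK2/3-/- LPS lay below the 3 arrays of wt LPS for both genes, and both calls in MK2/3-/- held without any single array. The Tia1 call in MK2-/- was lost in 12 of the 22 fits without 1 array. The dimmer probe of Tial1 was lower too, by 1.72 in MK2/3-/- (adjusted p = 0.000488) and by 1.01 in MK2-/- (adjusted p = 0.0397). That of Tia1 overlapped the wt arrays and was not called by limma. It was at -1.28 in MK2/3-/- (adjusted p = 0.148) and at -0.82 in MK2-/- (adjusted p = 0.403). The dimmer probe of Elavl1, which read differently from the brighter one, was lower by 1.09 in MK2/3-/- (adjusted p = 0.0139). Zc3h12a, Rc3h1, Hnrnpd, Khsrp and the brighter probe of Elavl1 were not called in either knockout under LPS, with differences from wt between -0.39 and 0.33.

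**Figure D5:**
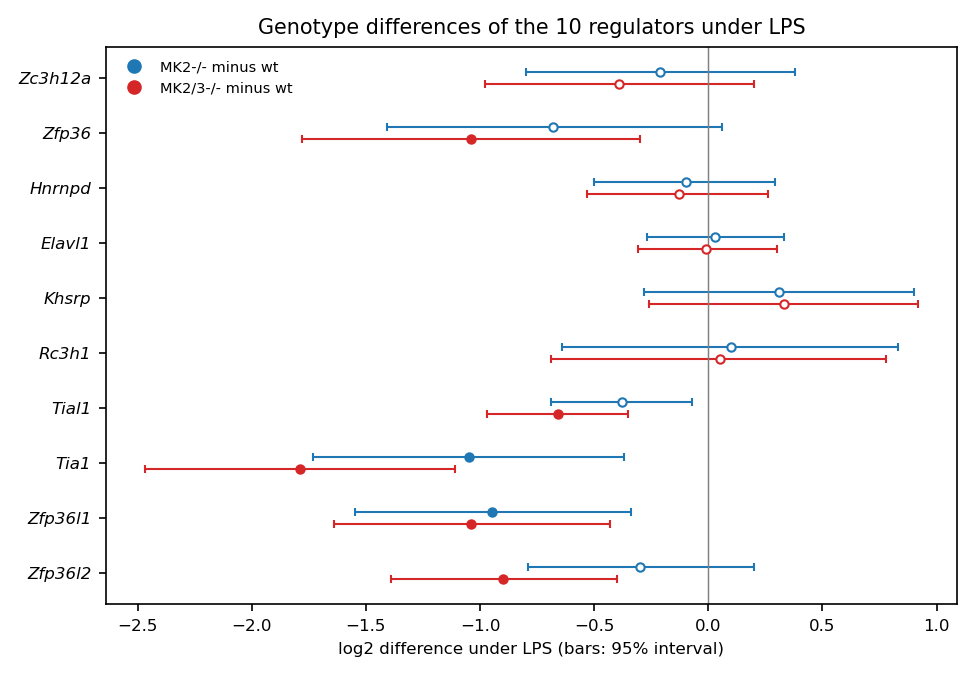
Difference from wt under LPS on the log2 scale (horizontal axis) for the 10 genes in MK2-/- and MK2/3-/- BMDM, with 95% intervals from limma and filled points for an adjusted p below 0.05. The 7 filled points, all below 0, are Zfp36, Zfp36l1, Zfp36l2, Tia1 and Tial1 in MK2/3-/- and Zfp36l1 and Tia1 in MK2-/-.

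In medium the genotypes differed at fewer genes. Zc3h12a was lower in MK2-/- than in wt by 1.22 (SE 0.26, limma adjusted p = 0.00977), with no overlap between the groups. The lowest of the MK2-/- arrays, replicate 2 at 6.40, lay apart from the other 3, and without it the difference was -0.90 (adjusted p = 0.0233). Without the wt medium array of replicate 4, on which the LPS-inducible genes were high, it was -1.16 (adjusted p = 0.0294). In the same comparison 4 of 9 LPS-inducible check genes were lower and none higher in MK2-/- than in wt (median -1.74). Of 13 targets of regnase-1 or roquin, 6 were lower and 1 higher (median -1.22), where 3.13% of all genes were lower. The list of 13 holds Zc3h12a itself, which counts among its lower genes. It also shares Il6, Il1b, Ptgs2 and Cxcl1 with the check genes, so the 2 counts are not separate. Of 28 TTP targets, a list that overlaps both, 7 were lower and none higher in this comparison (median -0.77). The part of all these genes in the Zc3h12a result was not tested. Khsrp was higher in MK2-/- than in wt by 1.18 (SE 0.26, adjusted p = 0.0116), at 14.75, 15.41, 14.48 and 14.51 against 13.06, 13.86, 13.73 and 13.77, and the dimmer probe of Khsrp was not called there (0.15, adjusted p = 0.606). These were 2 of the 10 genes, where 8.88% of all genes were called. Zfp36 also had an unadjusted p below 0.05 (-0.71, limma adjusted p = 0.178), a mark that 5793 of the 22330 genes passed. Between MK2/3-/- and wt limma called none of the 10, and 2.02% of all genes. An unadjusted p below 0.05 was found for 3776 of the 22330 genes and for 1 of the 10 (Khsrp, difference 1.07, adjusted p = 0.0545). Between MK2/3-/- and MK2-/- limma again called none of the 10, and 2.83% of all genes. An unadjusted p below 0.05 was found for 3353 of the 22330 genes and for 2 of the 10. The 2 were Zc3h12a at 1.02 (adjusted p = 0.0573) and Zfp36 at 0.80 (adjusted p = 0.289).

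Whether the LPS response itself differed between genotypes was tested as an interaction, in which an additive effect of the slide cancels. No member was called in any of the 3 tests by limma. Between MK2/3-/- and wt 0.69% of all genes were called. An unadjusted p below 0.05 was found for 2542 of the 22330 genes and for 5 of the 10 members. These were Zfp36l2 at -1.23 (95% interval -1.93 to -0.53, adjusted p = 0.0882), Tia1 at -1.34 (-2.31 to -0.38, adjusted p = 0.205), Tial1 at -0.62 (-1.05 to -0.18, adjusted p = 0.196), Zfp36l1 at -1.14 (-1.99 to -0.28, adjusted p = 0.236) and Zfp36 at -1.13 (-2.17 to -0.09, adjusted p = 0.378). With array weights 2 of them passed, Zfp36l2 (adjusted p = 0.0263) and Tia1 (adjusted p = 0.0316). Between MK2-/- and wt 0% of all genes were called. An unadjusted p below 0.05 was found for 1683 of the 22330 genes and for 3 of the 10 members. The 3 were Zc3h12a at 1.01, Khsrp at -0.87 and Tial1 at -0.51. Between MK2/3-/- and MK2-/- 0.0672% of all genes were called. An unadjusted p below 0.05 was found for 1923 of the 22330 genes and for 2 of the 10 members. The 2 were Zc3h12a at -1.20 and Zfp36 at -1.16. A difference of the knockout responses of Zfp36 from the wt response is therefore not shown.

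Genes that act with these regulators were taken from lists by known role. Their counts of calls stand beside 42.2% of all genes called with LPS in either direction in wt, 44.8% in MK2-/- and 48.3% in MK2/3-/-. Of 22 genes of deadenylation, 2 rose and 7 fell with LPS in wt, 3 rose and 10 fell in MK2-/-, and 2 rose and 10 fell in MK2/3-/-, or 40.9%, 59.1% and 54.5% called, with medians of -0.34, -0.30 and -0.58. Cnot7, a catalytic subunit of the CCR4-NOT complex, rose by 1.30 in wt (limma adjusted p = 0.00051) and Btg2, an adaptor of the complex, by 1.05. Cnot6l, another catalytic subunit, fell by 1.94, the adaptor Tob1 by 1.79, Paip2, which binds poly(A)-binding protein, by 1.51 and Pan3, of the other deadenylase complex, by 1.21.

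Of 35 genes of decapping, exonucleases and the exosome, 8 rose and 10 fell in wt, 9 rose and 14 fell in each knockout, or 51.4%, 65.7% and 65.7% called, with medians of -0.24, -0.37 and -0.37. The decapping enzyme Dcp2 rose by 2.53, its activator Dcp1a by 1.17, the 5' exonuclease Xrn1 by 1.50 and the exosome subunit Exosc9 by 2.45 in wt. The exosome subunits Exosc6 and Exosc7 fell by 2.31 and 1.32, the exosome-type nuclease Dis3l by 1.30 and Lsm6, of the Lsm ring, by 1.18. Under LPS 8 of the 35 were lower and none higher in MK2/3-/- than in wt, a share of 22.9%. Of all genes 14.0% were lower there and 9.65% higher, or 23.7% in either direction. In MK2-/- 4 of the 35 were lower than in wt and none higher, a share of 11.4%. Of all genes 7.1% were lower in MK2-/- and 4.54% higher, or 11.6% in either direction. Of the 22 deadenylation genes 6 were lower and 2 higher in MK2/3-/- than in wt under LPS, or 36.4% called beside 23.7% of all genes.

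Of 47 other RNA-binding regulators, 14 rose and 7 fell in wt, 18 rose and 6 fell in MK2-/-, and 11 rose and 9 fell in MK2/3-/-, or 44.7%, 51.1% and 42.6% called, close to the shares of all genes, with medians of 0.16, 0.29 and 0.22. Arid5a, known to stabilise Il6 mRNA, rose by 4.05 in wt (limma adjusted p = 1.4e-08), N4bp1, an RNase related to regnase-1, by 3.10, the Hu protein Elavl4 by 2.95 and Cpeb4, which binds the 3' untranslated region, by 2.66. Cirbp, a cold-inducible RNA-binding protein, fell by 1.24, Larp4 by 0.96, Hnrnpa0 by 0.77 and nucleolin (Ncl) by 0.77, but Ncl was at 0.00 when arrays were scaled to their 75th percentile.

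Of 19 genes that control TTP through p38 and MK2, 6 rose and 4 fell in wt, 10 rose and 4 fell in MK2-/-, and 8 rose and 4 fell in MK2/3-/-, or 52.6%, 73.7% and 63.2% called, with medians of 0.23, 0.47 and 0.44. The p38 phosphatase gene Dusp1 rose by 3.72 in wt, 3.35 in MK2-/- and 2.46 in MK2/3-/-, and in wt Mapkapk2 rose by 2.99, the 14-3-3 gene Ywhaz by 1.80 and Ppp2r1a, of the phosphatase PP2A, by 1.01. Mapk14, the gene of p38 alpha, fell by 2.82, the 14-3-3 gene Ywhah by 2.64, Map2k6, a kinase of p38, by 2.31 and Mapkapk3 by 1.02 in wt. Mapk14 was also lower in MK2/3-/- than in wt under LPS, by 2.19 (adjusted p = 0.00026).

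Of 28 mRNAs known as TTP targets, a list that holds Zfp36 itself and Dusp1, 20 rose and 1 fell in wt, 23 rose and 3 fell in MK2-/- and 19 rose and 2 fell in MK2/3-/-, with medians of 4.66, 5.17 and 4.40. Of all genes 18.7%, 17.6% and 20.3% rose and 23.6%, 27.2% and 28.0% fell. Many of these genes are textbook LPS-induced cytokines and chemokines. Il1a rose by 8.12, Il6 by 8.11, Ccl2 by 7.65 and Cxcl1 by 7.31 in wt, and Fos, an immediate-early gene, fell by 2.11. Under LPS 4 of the 28 were lower in MK2/3-/- than in wt and none higher: Il10 at -2.32, Cebpd at -2.25, Vegfa at -1.51 and Zfp36. That share of 14.3% was close to the 14.0% of all genes that were lower there, where 23.7% were called in either direction. In MK2-/- 3 were lower, Il10 at -1.55, Il2 at -1.69 and Il3 at -1.37, and Il23a was higher at 3.10, a share of 14.3% beside 11.6% of all genes. Il10, Vegfa, Il2, Il3 and Il23a are named here after their values were seen. The list of 13 mRNAs known as targets of regnase-1 or roquin holds Zc3h12a itself. It shares Il6, Cxcl1, Cxcl2, Il1b, Ptgs2 and Tnf with the TTP list. Of these 13, 11 rose in wt, 10 in MK2-/- and 11 in MK2/3-/- and none fell, with Ptgs2 at 7.13 and Cxcl2 at 6.90 in wt. The medians of these lists stand beside -0.04, -0.01 and 0.01 over all genes.

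The genes whose signal moved most like each of 4 regulators were sought over the 22 arrays, by Pearson's r. This is a description, since the arrays share the step from medium to LPS. For Zfp36 the 5 genes were Zfp281 (r = 0.976), Eea1 (0.976), Zc3h12a (0.975), Igsf9 (0.969) and Rhbdf2 (0.967), so that the 2 induced regulators were close to each other. For Zc3h12a they were Azi2 (0.989), Znrf1 (0.988), Xkr8 (0.986), Ogfod1 (0.986) and Agfg1 (0.986). For Zfp36l1 they were Tex261 (0.985), Snx5 (0.983), Kcnj10 (0.983), Inpp5d (0.982) and Nsmce4a (0.982), and for Zfp36l2 they were Bmf (0.996), Dapk1 (0.992), Abhd15 (0.991), Kif21b (0.990) and Tmem86a (0.989).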

How the data were processed

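RNA of BMDM was hybridised by the authors to 22 Agilent 1-colour mouse arrays (design annotated on mm9) with the dye Cy3. The deposited scanner files give an intensity per spot that Agilent Feature Extraction 11.0.1.1 had background-corrected, not normalised between arrays. The deposited table of log2 values, quantile normalised and median-centred by the authors, served as an alternative; it followed the scanner values with r of 0.993 to 0.999. Of 62976 spots, 3671 controls were left out and 115 to 2927 outlier spots per array set to missing. Log2 intensities were quantile normalised. Probes were kept if they had a RefSeq (29150) or GenBank (3735) accession and 3 or more arrays with signal well above background, named through RefSeq (27509 of the RefSeq probes). A model with 6 group means was fitted with limma 3.58.1 in R 4.3.3 and tested on simulated data. Groups came from the labels. In each list the 4 largest rises and falls in wt and each gene called in an interaction were named. Il12b, Cd68 and Ly6g, which matched no named probe, were not analysed here. The members and lists were chosen with earlier results of these data known. Alternatives varied the scaling, background correction, filter, probe, test, weights, block and arrays. The number of arrays limits the precision.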

Additional observations from a re-analysis of the deposited data

Results flagged for a closer look

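For 7 of 58 sets of 4 arrays, taken over the 15 probes of the 10 genes, the highest or lowest array lay far from the other 3, a gap past the critical value that chance alone gives in about 1 of 20 sets. Zfp36l1 was at 9.62 on MK2-/- LPS replicate 1, against 10.38 to 10.45 on the other arrays. Khsrp was at 13.06 on wt medium replicate 1, against 13.73 to 13.86, and at 14.58 on MK2-/- LPS replicate 1, against 14.30 to 14.32. On MK2-/- medium replicate 2, Zc3h12a was at 6.40 against 7.60 to 7.83 and Tia1 at 6.11 against 7.29 to 7.41. On MK2-/- LPS replicate 3, the array with the most marked spots (2927, at most 261 on the others), Hnrnpd was at 12.18 against 12.68 to 12.73 and the dimmer probe of Khsrp at 6.35 against 7.10 to 7.15. The causes were not tested.

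The LPS response of 5 genes from the lists differed between MK2/3-/- and wt in limma's interaction test. Cebpd, a transcription factor gene listed as a TTP target, rose by 2.87 in wt, by 2.09 in MK2-/- and by 0.28 in MK2/3-/-, which was not called, and the interaction was -2.59 (adjusted p = 0.0228). Mapk14 had an interaction of -2.09 (adjusted p = 0.0478), the exosome gene Exosc1 of -1.73 (adjusted p = 0.035), Cnot3, a subunit of CCR4-NOT, of -1.15 (adjusted p = 0.04) and Mapkapk3, deleted in MK2/3-/-, of -2.14 (adjusted p = 0.0167). Mapkapk3 differed between MK2/3-/- and MK2-/- as well, at -2.61 (adjusted p = 0.00412). Of the 22 fits without 1 array, Mapk14 was not called in 18, Cnot3 in 15 and Exosc1 in 10, each time with the fit without wt medium replicate 4 among them. Cebpd was not called without MK2/3-/- medium replicate 1 or 2, nor Mapkapk3 against wt without MK2/3-/- medium replicate 3.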

How the results depend on the processing

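Of 32 called results of the 10 genes over the 12 comparisons, 18 were called under every alternative apart from a minimum change of 2-fold. These were all called LPS responses of Zfp36, Zfp36l1, Zfp36l2 and Zc3h12a, those of Tia1 and Tial1 in both knockouts and those of Elavl1 and Hnrnpd in MK2-/-. No called result changed sign among the 10 genes. Scaling to the 75th percentile moved the median LPS difference of all genes from -0.04, -0.01 and 0.01 to 0.30, 0.28 and 0.29 in wt, MK2-/- and MK2/3-/-. It called 6370 genes higher and 4163 lower in wt instead of 4166 and 5261, 5337 and 4625 in MK2-/- instead of 3922 and 6071, and 5736 and 4876 in MK2/3-/- instead of 4534 and 6248. Under LPS it called 4699 higher and 3506 lower in MK2/3-/- against wt instead of 2154 and 3133. Ncl in wt went from -0.77 to 0.00.

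With a minimum of 2-fold, 4 of the 10 genes were called for LPS in wt and 5 in MK2-/-, and under LPS 1 for MK2-/- and 3 for MK2/3-/- against wt. With only the groups compared in the fit, 0 and 1 were called for MK2-/- and MK2/3-/- against wt under LPS, and 1 for MK2-/- against wt in medium. With Benjamini-Hochberg adjustment, the methods' t-test called 0 in each of these 3 comparisons. Unadjusted, it called 1 for MK2/3-/- against MK2-/- under LPS, and in medium 2 for MK2/3-/- against wt and 2 against MK2-/-; it was not run for the interactions, which compare 4 groups. Without a filter on dim probes, 1 was called for MK2-/- against wt under LPS. Array weights called 2 for MK2/3-/- against MK2-/- under LPS, 1 for MK2/3-/- against wt and 1 against MK2-/- in medium, and 2 in the interaction of MK2/3-/- and wt. For MK2/3-/- against wt in medium 1 was called with normexp, with probes above background on all arrays of a group and with the trended robust fit, and the last also called 1 for MK2/3-/- against MK2-/- in medium. The causes were not tested.

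Leaving out 1 array gave 5 to 8 calls for LPS in wt, 6 to 7 in MK2/3-/- and 8 to 8 in MK2-/-; under LPS 0 to 2, 3 to 5 and 0 to 1 for MK2-/- against wt, MK2/3-/- against wt and MK2/3-/- against MK2-/-; in medium 2 to 2, 0 to 1 and 0 to 1; in the interactions 0 to 0, 0 to 1 and 0 to 0; and 38 to 48 probe calls in all.

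Of the 10 pairs of LPS and medium arrays with the same replicate number, 7 had deviations from the group means that correlated above 0.1 (-0.086 to 0.363), against 5 of the 30 pairs with other numbers. Of the 10 pairs with the same letter in the array names, which also share the labelled age, 7 did (-0.086 to 0.419). The labels name no shared mouse or batch and not every pair was above 0.1, so neither was used in the main fit. With a replicate block of the number the counts for LPS stayed at 8, 8 and 7, and with one of the letter in the array names 1 gene, Khsrp, was called for MK2/3-/- against wt in medium.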
